A study of Mus musculus with 9 samples.

Results

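The genes described here are 9 that write, maintain, read out or remove DNA methylation: Dnmt1, Dnmt3a, Dnmt3b, Dnmt3l, Uhrf1, Tet1, Tet2, Tet3 and Tdg. They were chosen by name, through the accession that each probe of the array carries. The array held 18 probes for these 9 genes among 55681 probes in all, and 17 of the 18 passed the filter on dim probes. The gene-level test used the brightest probe of each gene and covered 26875 features, the 9 genes included.

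The cells were J1 mouse embryonic stem cells, an established line of strain 129S4/SvJae, grown on gelatin without a feeder layer in serum replacement medium with LIF. All samples shared that line and that medium, and each of the 3 groups was exposed for 24 h and held 3 samples. The control group received the solvent DMSO, the second group 3 µM CHIR99021, which inhibits the kinase GSK3, and the last group 1 mM AICAR, which cells convert into an activator of the kinase AMPK. The result is a measurement of 1 cell line, and the labels number the samples without saying whether they came from separate cultures. The p-values therefore speak of the spread among these 9 samples, part or all of which may be technical.

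DNA methylation in mammals is laid down on cytosines followed by guanine (CpG). DNMT3A and DNMT3B methylate new sites, and DNMT3L, which has no catalytic activity of its own, stimulates both. UHRF1 recognises the hemimethylated DNA left by replication and brings in DNMT1, which restores the second strand. TET1, TET2 and TET3 oxidise 5-methylcytosine, and TDG excises the most oxidised forms so that base excision repair can put back an unmodified cytosine. In mouse embryonic stem cells DNMT3B, DNMT3L and TET1 are known for high expression, and PRDM14 is known as a repressor of the de novo methyltransferase genes there. Only RNA was measured, so nothing here bears on methylation itself.

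The 250 bases before each annotated start are shown for Dnmt3b and Dnmt3l, the 2 genes with the largest falls, and for Tet2, the only one of the 9 that passed the test upward against DMSO. The sequences are from RefSeq on build GRCm38.p6, read 5′ to 3′ on the gene's strand, with every CpG in capitals. Dnmt3b starts after chr2:153649199-153649448 on the plus strand. RefSeq gives Dnmt3l 3 starts, after chr10:78042037-78042286, chr10:78049592-78049841 and chr10:78055085-78055334 on the plus strand, and the Dnmt3l probe was not assigned to any of them. Tet2 lies on the minus strand, with its window at chr3:133544391-133544640.
Dnmt3b: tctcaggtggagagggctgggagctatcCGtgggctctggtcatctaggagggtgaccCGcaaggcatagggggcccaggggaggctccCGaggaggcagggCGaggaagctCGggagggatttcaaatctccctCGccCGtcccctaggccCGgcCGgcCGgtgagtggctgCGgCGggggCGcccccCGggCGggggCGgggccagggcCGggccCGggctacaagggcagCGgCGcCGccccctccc
Dnmt3l, first start: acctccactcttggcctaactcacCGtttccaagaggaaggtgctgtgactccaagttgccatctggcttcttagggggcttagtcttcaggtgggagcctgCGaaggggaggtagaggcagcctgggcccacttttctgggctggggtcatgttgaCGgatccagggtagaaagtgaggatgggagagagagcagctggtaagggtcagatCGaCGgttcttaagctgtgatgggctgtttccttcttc
Dnmt3l, second start: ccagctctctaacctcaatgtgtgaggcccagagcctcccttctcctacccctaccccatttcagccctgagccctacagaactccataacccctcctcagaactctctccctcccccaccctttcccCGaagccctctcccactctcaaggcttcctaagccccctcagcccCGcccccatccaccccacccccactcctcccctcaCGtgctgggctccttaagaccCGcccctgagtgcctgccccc
Dnmt3l, last start: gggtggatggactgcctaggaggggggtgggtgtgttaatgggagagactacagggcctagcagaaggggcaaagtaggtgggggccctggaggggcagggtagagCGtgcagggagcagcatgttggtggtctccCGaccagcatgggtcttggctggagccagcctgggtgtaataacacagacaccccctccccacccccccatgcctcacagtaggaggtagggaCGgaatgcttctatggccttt
Tet2: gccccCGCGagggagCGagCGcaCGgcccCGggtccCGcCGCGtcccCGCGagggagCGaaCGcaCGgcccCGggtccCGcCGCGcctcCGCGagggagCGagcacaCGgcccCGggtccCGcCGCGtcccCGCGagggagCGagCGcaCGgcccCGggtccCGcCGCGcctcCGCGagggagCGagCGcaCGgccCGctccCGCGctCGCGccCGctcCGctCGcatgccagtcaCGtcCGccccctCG
The Dnmt3b window holds 21 CpG, and the 3 Dnmt3l windows hold 5, 4 and 3. The Tet2 window holds 51, more than 99.9% of the 32851 such windows of the reference table, whose median is 6. The 2 genes with the largest falls thus lie on opposite sides of that median.

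All 16 windows of the 9 genes were searched on both strands for 3 short motifs. The TCF/LEF core CTTTGAT was in 0 of 16 windows and in 3.21% of all windows of this length. Its variant CTTTGAA was in 1, a Dnmt1 window, and in 4.46% of all. The E-box CACGTG was in 3, 1 each of Dnmt3a, Dnmt3l and Tdg, and in 6.02% of all. Among the others, the Dnmt3a windows hold 38, 40 and 15 CpG, those of Dnmt1 26, 7 and 2, those of Uhrf1 10 and 30, and the single windows of Tet1, Tet3 and Tdg 15, 17 and 19. A match of letters describes the sequence and is not a binding site.

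The share of spots well above background ran from 62.8% to 67.2%, and arrays correlated at 0.995 to 0.997 within a group and at 0.973 to 0.983 between groups. Each group lay on its own slide with its own scan, so an effect of the slide and one of the treatment cannot be told apart in what follows. The 7 markers of embryonic stem cells were well above background on every array, with a summed level of 479 to 499 times the array's 75th percentile in DMSO, 499 to 525 in CHIR99021 and 513 to 557 in AICAR. Most of that sum was Dppa5a, at a level of 8.39 in DMSO, and marker by marker 3 rose and 1 fell with CHIR99021 (Tdgf1, -0.60), 4 and 1 with AICAR (Zfp42, -0.31). Of 10 fibroblast markers 8 were tested and Postn and Lum did not pass the filter. The summed level of the 8 was 128 to 131 in DMSO, 141 to 148 in CHIR99021 and 129 to 135 in AICAR, nearly all of it Fn1 and Vim, and 1 rose and 3 fell with CHIR99021, 1 and 4 with AICAR. That of 7 primitive endoderm markers was 0.89 to 0.96, 0.97 to 1.08 and 1.04 to 1.11, and 3 rose and 2 fell with CHIR99021, 4 and 3 with AICAR. The part of other cell types in the results was not tested.

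Every level below is a log2 signal relative to the array's own 75th percentile, where 0 is that percentile, and it is compared only between arrays for the same probe. A gene rose or fell where its Benjamini-Hochberg adjusted p in limma was under 0.05 over all 26875 features. With CHIR99021 against DMSO 5 of the 9 genes fell (Dnmt1, Dnmt3a, Dnmt3b, Dnmt3l and Tet1), 1 rose (Tet2) and 3 did not pass the test. Over all features 51% passed, 30.4% upward and 20.5% downward, so a call is common on these arrays. With AICAR against DMSO 7 fell (Dnmt1, Dnmt3a, Dnmt3b, Dnmt3l, Uhrf1, Tet1 and Tdg), 0 rose and 2 did not pass, against 60.5% of all features, 30.9% upward and 29.6% downward. The median log2 fold change of the 9 was -0.19 with CHIR99021 and -0.25 with AICAR, beside 0.07 and 0.03 over all features. The 2 groups did not overlap for 8 of the 9 genes with CHIR99021 and for 7 with AICAR, as for 63.3% and 67.1% of all features. Both comparisons use the same 3 DMSO arrays, so they are given side by side. RNA was taken from whole cultures, in which fewer cells expressing a gene and less RNA per cell cannot be told apart.

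**Figure D1:**
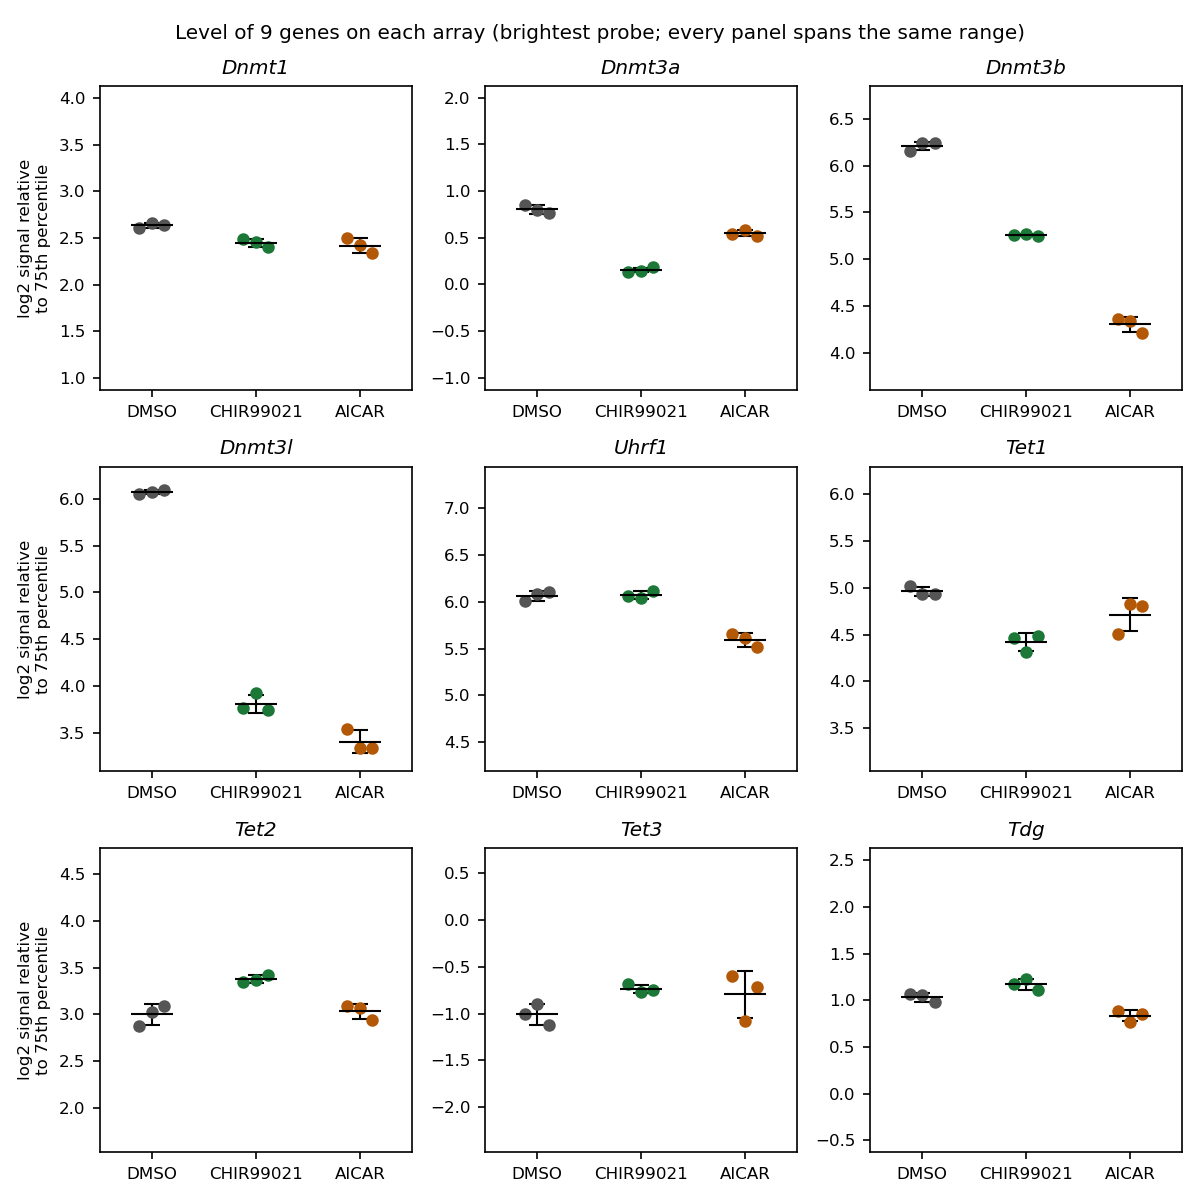
Level of the 9 genes on each of the 9 arrays, as log2 signal of the brightest probe relative to the array's 75th percentile, with points for arrays and bars for the group mean and SD (n = 3). Every panel spans the same range of log2 units, so the falls of Dnmt3b to 4.30 and of Dnmt3l to 3.40 with AICAR stand beside the smaller shifts of the other genes.

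Of the 9 genes Dnmt3l, the cofactor of de novo methylation, fell most in both comparisons with DMSO. Its levels were 6.06, 6.07 and 6.09 on the DMSO arrays, 3.76, 3.92 and 3.74 with CHIR99021, and 3.54, 3.33 and 3.34 with AICAR. The 3 groups did not overlap, with DMSO highest and AICAR lowest. Against DMSO Dnmt3l was 4.82-fold lower with CHIR99021, a log2 fold change of -2.27 ± 0.07 (SE, n = 3 per group; adjusted p = 4e-07 in limma). It was 6.36-fold lower with AICAR, a change of -2.67 ± 0.07 (adjusted p = 1.77e-07 in limma). Ordered by log2 fold change it was number 106 from the bottom of 26875 features with CHIR99021 and number 128 with AICAR. Its single probe means that no other probe of the array could be set beside these values.

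Dnmt3b, a methyltransferase of new sites, also fell with both agents, further with AICAR. The brightest of its 3 probes read 6.16, 6.24 and 6.24 in DMSO, 5.26, 5.27 and 5.25 with CHIR99021, and 4.36, 4.34 and 4.21 with AICAR. Again no group overlapped another, and the order was DMSO, CHIR99021, AICAR. The log2 fold change was -0.95 ± 0.05 with CHIR99021, a 1.94-fold fall (adjusted p = 5.17e-06 in limma), and -1.91 ± 0.05 with AICAR, a 3.76-fold fall (adjusted p = 1.81e-07). Its other probes gave larger falls, 2.46-fold each with CHIR99021 and 4.62-fold and 4.42-fold with AICAR. The second of them read 4.77, 4.79 and 4.76 in DMSO, 3.47, 3.41 and 3.54 with CHIR99021, and 2.59, 2.57 and 2.53 with AICAR. By the brightest probe, falls of 2-fold or more passed the test for 3.94% of features with CHIR99021, where Dnmt3l was the only one of the 9 genes among them, and for 5.34% with AICAR, where Dnmt3b and Dnmt3l were.

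Dnmt3a, the other catalytic enzyme of new sites, fell further with CHIR99021 than with AICAR, the reverse of Dnmt3b. Its probe read 0.85, 0.80 and 0.76 in DMSO, 0.14, 0.15 and 0.18 with CHIR99021, and 0.54, 0.58 and 0.52 with AICAR, with no overlap between groups. The log2 fold change was -0.65 ± 0.05 with CHIR99021 (1.57-fold lower, adjusted p = 1.56e-05 in limma) and -0.26 ± 0.05 with AICAR (1.20-fold lower, adjusted p = 0.00153). The AICAR call was lost when arrays were scaled by the spike-in probes (-0.13, adjusted p = 0.289 in limma).

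Of the maintenance pair, Dnmt1 fell slightly with both agents and Uhrf1 fell with AICAR. Dnmt1 read 2.61, 2.66 and 2.64 in DMSO, 2.49, 2.46 and 2.40 with CHIR99021, and 2.50, 2.42 and 2.34 with AICAR. Both treated groups lay below DMSO and overlapped each other. The changes were -0.19 ± 0.06 with CHIR99021 (1.14-fold lower, adjusted p = 0.0227 in limma) and -0.22 ± 0.06 with AICAR (1.16-fold lower, adjusted p = 0.01). The first call was lost in 5 of 19 alternatives, with adjusted p in limma from 0.00608 to 0.0741 over the 19. These were spike-in scaling (-0.25) and the fits without DMSO replicate 2 (-0.17), DMSO replicate 3 (-0.19), CHIR99021 replicate 2 (-0.19) and CHIR99021 replicate 3 (-0.16). The second was lost in 3, all of them other scalings (-0.08 to -0.13).

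Uhrf1 read 6.00, 6.08 and 6.11 in DMSO and 6.06, 6.04 and 6.12 with CHIR99021, so these groups overlapped. The difference was 0.01, with a 95% interval from -0.12 to 0.13 (adjusted p = 0.929 in limma), and its sign turned with other scalings and with single arrays left out (-0.06 to 0.03). With AICAR the levels were 5.65, 5.61 and 5.51, below every DMSO array. That fall was -0.47 ± 0.06, or 1.39-fold (adjusted p = 0.000154 in limma), and with quantile normalization it was -0.30 (adjusted p = 0.00253 in limma). A dimmer second probe fell by 0.34 on the log2 scale (adjusted p = 0.0106 in limma), a call lost with spike-in scaling (-0.21, adjusted p = 0.168).

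Among the TET dioxygenases Tet1 and Tet2 moved in opposite directions with CHIR99021. Tet1 read 5.02, 4.94 and 4.93 in DMSO, 4.46, 4.31 and 4.49 with CHIR99021, and 4.51, 4.82 and 4.80 with AICAR. AICAR replicate 1 lay near the CHIR99021 arrays and the other AICAR arrays nearer to DMSO. With CHIR99021 it fell by 0.54 ± 0.09 on the log2 scale (1.46-fold, adjusted p = 0.00173 in limma), and its second probe by 0.63. With AICAR the change was -0.25 ± 0.09 (adjusted p = 0.0448 in limma), a call lost in 12 of 19 alternatives, over which the adjusted p ran from 0.00192 to 0.517. It was -0.07 with quantile normalization, -0.08 by the series matrix values and -0.12 with spike-in scaling (adjusted p = 0.513, 0.517 and 0.415 in limma). Without AICAR replicate 1 the change was -0.15 (adjusted p = 0.093 in limma). Leaving out any DMSO replicate (-0.22 to -0.27), or CHIR99021 replicate 1 or 3 (-0.25 in both), also ended that call. The second Tet1 probe, tested on its own, fell by 0.27 with AICAR (adjusted p = 0.0046 in limma), and that call was lost with spike-in scaling (-0.14, adjusted p = 0.276).

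Tet2 read 2.88, 3.03 and 3.09 in DMSO, 3.35, 3.36 and 3.42 with CHIR99021, and 3.09, 3.06 and 2.94 with AICAR. The CHIR99021 arrays lay above all others, while AICAR and DMSO overlapped. The rise with CHIR99021 was 0.38 ± 0.07, or 1.30-fold (adjusted p = 0.00241 in limma), and 0.31 by its second probe (adjusted p = 0.00857), whose call was lost with spike-in scaling (0.24, adjusted p = 0.0786). With AICAR the difference by the brightest probe was 0.03, with a 95% interval from -0.13 to 0.19 (adjusted p = 0.702 in limma). The second probe read lower on every AICAR array than on any DMSO array, with a change of -0.14 (adjusted p = 0.121 in limma). With normexp that probe was called lower (-0.24, adjusted p = 0.0316 in limma), and with spike-in scaling it gave -0.01 (adjusted p = 0.933).

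Tet3, another of these enzymes, did not pass the test in any comparison, and 1 of its 3 probes was on no array well above background. Its brightest probe read -1.01, -0.89 and -1.12 in DMSO, -0.69, -0.77 and -0.75 with CHIR99021, and -0.59, -1.08 and -0.71 with AICAR. The CHIR99021 arrays lay above DMSO, and the AICAR arrays spread across both. The differences were 0.27 with CHIR99021 (95% interval -0.01 to 0.55, adjusted p = 0.0972 in limma) and 0.21 with AICAR (-0.07 to 0.49, adjusted p = 0.166). Without AICAR replicate 2 both passed the test, at 0.27 (adjusted p = 0.0178) and 0.35 (adjusted p = 0.00821), so neither difference was called in the fit of all 9 arrays and both were without that array.

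Tdg, the glycosylase that acts after the TET enzymes, gave different directions by probe with AICAR, while all 3 probes lay above 0 with CHIR99021 and 1 of them passed. The brightest probe (A_55_P2044091) read 1.06, 1.05 and 0.98 in DMSO, 1.18, 1.23 and 1.11 with CHIR99021, and 0.88, 0.77 and 0.85 with AICAR. The groups did not overlap. The gene-level test, which used this probe, gave 0.14 with CHIR99021 (95% interval 0.01 to 0.26, adjusted p = 0.0639 in limma) and a fall of 0.20 ± 0.05 with AICAR (adjusted p = 0.0139). With spike-in scaling the AICAR change was -0.07 (adjusted p = 0.64 in limma).

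The second Tdg probe (A_55_P2121364) read -0.76, -0.75 and -0.72 in DMSO, -0.17, -0.24 and -0.20 with CHIR99021, and -0.64, -0.48 and -0.53 with AICAR. Every treated array was above every DMSO array. Tested on its own it rose by 0.54 ± 0.06 with CHIR99021 (adjusted p = 0.000146 in limma) and by 0.19 ± 0.06 with AICAR (adjusted p = 0.0181), a call not kept with normexp (0.11, adjusted p = 0.128). The third probe (A_66_P116265) gave 0.19 with CHIR99021 (adjusted p = 0.135 in limma) and fell by 0.48 ± 0.09 with AICAR (adjusted p = 0.00289 in limma). With the 3 probes averaged Tdg rose by 0.29 with CHIR99021 (adjusted p = 0.00144 in limma). RefSeq also lists Tdg-ps2, a transcribed pseudogene of Tdg, whose own probe changed by 0.03 with CHIR99021 (adjusted p = 0.733 in limma) and fell by 0.26 with AICAR (adjusted p = 0.00711). Whether Tdg probes bind such copies was not tested, so the direction for Tdg with AICAR is uncertain.

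**Figure D2:**
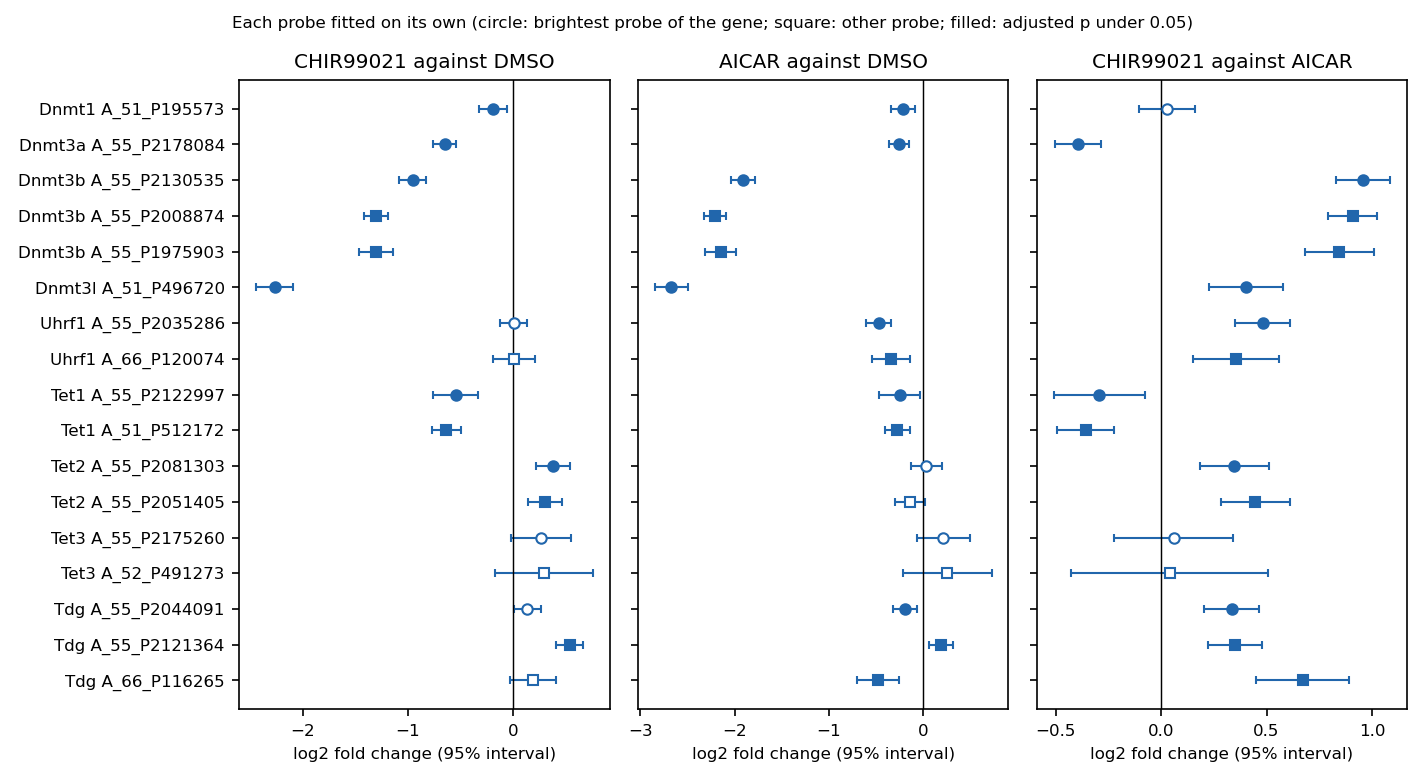
Log2 fold change of each of the 17 tested probes, fitted on its own, in the 3 comparisons, with 95% intervals from limma. Circles are the brightest probe of a gene, squares its other probes, and filled symbols have an adjusted p under 0.05. The 3 Dnmt3b probes lie together below 0 against DMSO, and the Tdg probes lie on both sides of 0 with AICAR.

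Taken probe by probe, 8 of the 17 probes fell and 3 rose with CHIR99021, where 47.7% of all probes passed. With AICAR 12 fell and 1 rose, where 58.6% passed. With spike-in scaling 7 fell and 2 rose with CHIR99021, and 6 fell and 1 rose with AICAR. Of genes with more than 1 tested probe, only Tdg had probes that passed the test in opposite directions.

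The agents were then compared with each other, a difference in which the DMSO arrays enter only through the shared estimate of the spread. In CHIR99021 against AICAR 5 genes were higher with CHIR99021 (Dnmt3b, Dnmt3l, Uhrf1, Tet2 and Tdg), 2 were lower (Dnmt3a and Tet1) and 2 did not pass the test. Over all features 60.8% passed, 36.2% upward and 24.6% downward, and the groups did not overlap for 7 of the 9 genes and for 65.5% of all features. Of the 17 probes 11 were higher and 3 lower, where 58.8% of all probes passed, and with spike-in scaling 5 were higher and 3 lower. Dnmt3b was 1.94-fold higher with CHIR99021 (0.96 ± 0.05, adjusted p = 2.71e-06 in limma), Uhrf1 1.40-fold (0.48 ± 0.06, adjusted p = 0.000126) and Dnmt3l 1.32-fold (0.40 ± 0.07, adjusted p = 0.00186). Tet2 was higher by 0.35 ± 0.07 (adjusted p = 0.00276 in limma) and Tdg by 0.34 ± 0.05 (adjusted p = 0.000898), and all 3 Tdg probes passed in this direction, of which 1 did with spike-in scaling. Dnmt3a was lower with CHIR99021 by 0.39 ± 0.05 (adjusted p = 0.000132 in limma) and Tet1 by 0.29 ± 0.09 (adjusted p = 0.0251).

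For Dnmt1 the difference between the agents was 0.03, with a 95% interval from -0.10 to 0.16 (adjusted p = 0.677 in limma), and for Tet3 it was 0.06, from -0.22 to 0.34 (adjusted p = 0.694). With spike-in scaling the differences of Dnmt3l (0.21), Tet2 (0.15) and Tdg (0.14) no longer passed, which left 2 of the 5. Tet2 also lost the call with quantile normalization (0.17, adjusted p = 0.0613 in limma) and by the series matrix values (0.16, adjusted p = 0.0717). The Tet1 call was lost without CHIR99021 replicate 2 (-0.24), AICAR replicate 2 (-0.24) or AICAR replicate 3 (-0.25).

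The difference between probes within an array does not change when an array is scaled by a single factor, such as its 75th percentile or its spike-in probes, but can change with quantile normalization or another background correction. It was followed as a description without a test. Taking the brightest probe of each gene, the difference of Dnmt3b and Dnmt3a shifted by -0.30 with CHIR99021 and by -1.65 with AICAR, relative to its DMSO mean. Its lowest DMSO value, 5.31, was above the highest with CHIR99021, 5.13, and all AICAR values were at or below 3.82. Dnmt3b thus fell more than Dnmt3a within each treated group, by far the most with AICAR. Its other probes changed by -1.30 each with CHIR99021, and by -2.21 and -2.15 with AICAR. By them its excess over Dnmt3a (-0.65 and -0.26) was larger with both agents. Against Dnmt1, Dnmt3b shifted by -0.77 and -1.69, and Dnmt3l by -2.08 and -2.46.

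Dnmt3l minus Dnmt3b shifted by -1.32 with CHIR99021 and by -0.76 with AICAR, without overlap, so Dnmt3l fell more than Dnmt3b with both agents and its excess was larger with CHIR99021. Tet2 minus Tet1 shifted by 0.92 with CHIR99021, with no overlap with DMSO. With AICAR it shifted by 0.29 and overlapped DMSO. Uhrf1 minus Dnmt1 rose above its DMSO values with CHIR99021 (3.57 to 3.72 against 3.40 to 3.47) and lay below them with AICAR (3.15 to 3.19). That shift with AICAR was -0.26, and it was -0.17 with quantile normalization and -0.05 with normexp. Dnmt3a minus Dnmt1 shifted by -0.46 with CHIR99021. With AICAR it shifted by -0.04, by -0.12 with quantile normalization and by 0.04 with normexp, so its sign there was not settled.

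**Figure D3:**
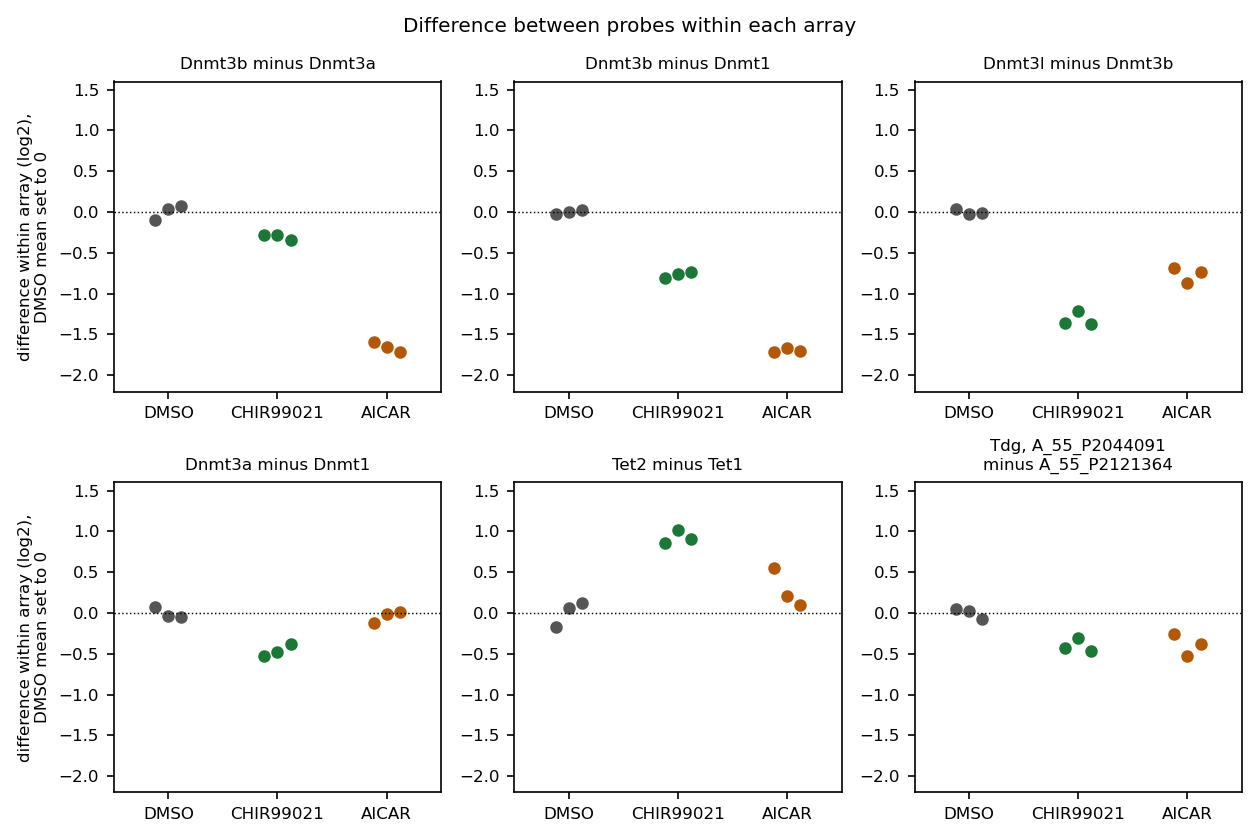
Difference between 2 probes on the same array (log2), drawn relative to its DMSO mean, with 1 point per array. Shown are 5 pairs of genes, each gene by its brightest probe, and 2 Tdg probes. Dnmt3b minus Dnmt3a shifts by -1.65 with AICAR and by -0.30 with CHIR99021, and Tet2 minus Tet1 by 0.92 with CHIR99021.

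The features most like Dnmt3l and Dnmt3b were found by their distance in the plane of the 2 log2 fold changes against DMSO, over 14559 named features well above background on all 9 arrays. Nearest to Dnmt3l was Atp1a4, a sodium pump subunit of sperm, at a distance of 0.18 (-2.42 ± 0.27 with CHIR99021 and -2.77 ± 0.27 with AICAR). These errors are larger than that distance, so its place as the nearest is not settled. Crisp1, a secreted protein of the epididymis, lay at 0.41. Only 1 feature lay within 0.25 log2 units of Dnmt3l, and 18 lay that close to Dnmt3b. Nearest to Dnmt3b were Zcchc3 (0.08; -0.99 and -1.84), the zinc finger gene Zic5 (0.13; -1.02 and -1.80) and Naprt, an enzyme of NAD synthesis (0.14; -0.97 and -1.77).

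The other genes of the pathway were taken from 7 lists of 65 genes in all, of which all 65 were tested. With CHIR99021 22 rose, 17 fell and 26 did not pass, where 51% of all features passed. With AICAR 18 rose, 26 fell and 21 did not pass, where 60.5% passed. With spike-in scaling 7 rose and 14 fell with CHIR99021, 20 and 18 with AICAR. The median log2 fold change was 0.06 and -0.06, beside 0.07 and 0.03 over all features. In neither comparison did this pooled median lie as low as that of the 9 genes (-0.19 and -0.25). Some single lists did. With AICAR they were the methyl donor cycle (-0.45), the maintenance partners (-0.39) and the methyl-CpG readers (-0.30). With CHIR99021 it was the list of germline genes (-0.24). The other lists did not.

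Among 7 partners of maintenance methylation 4 rose and 1 fell with CHIR99021, and 0 rose and 5 fell with AICAR. With spike-in scaling 0 rose and 1 fell with CHIR99021 and 0 and 3 with AICAR, and with normexp 2 rose and 2 fell with CHIR99021 and 0 and 5 with AICAR. With quantile normalization the counts were 3 and 2, and 1 and 3. Usp7 is counted as a rise with CHIR99021 (0.23), but its other probe gave -0.27. Dppa3 (Stella), which protects methylation in the zygote, is counted in this list although it restrains UHRF1. It fell by 1.57 ± 0.08 on the log2 scale with AICAR (adjusted p = 1.6e-06 in limma). With CHIR99021 it rose by 0.31 ± 0.08 (adjusted p = 0.0107), a call lost with spike-in scaling (adjusted p = 0.165). Hells, the chromatin remodeller that gives DNA methyltransferases access, fell by 0.63 ± 0.07 with AICAR (adjusted p = 0.000174 in limma) and by 0.24 ± 0.07 with CHIR99021 (adjusted p = 0.0302; with spike-in scaling 0.0819).

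Among 7 genes of targeting and imprint protection 2 rose and 3 fell with CHIR99021, and 3 rose and 4 fell with AICAR, where normexp gave 1 and 3. With spike-in scaling 1 rose and 2 fell with CHIR99021. Trdmt1 is counted in this list and among its falls with AICAR (-0.48, adjusted p = 0.00148 in limma), although it is a tRNA methyltransferase. Prdm14, known as a repressor of Dnmt3b and Dnmt3l in mouse embryonic stem cells, rose with both agents, from a mean level of 1.09 in DMSO to 2.25 and 2.03. The changes were 1.16 ± 0.07 with CHIR99021 (adjusted p = 7.22e-06 in limma) and 0.94 ± 0.07 with AICAR (adjusted p = 1.36e-05). Zfp57, which keeps imprints methylated, fell by 1.38 ± 0.07 with AICAR (adjusted p = 2.32e-06 in limma), and its other probe gave -0.51. With CHIR99021 these probes gave -0.20 and 0.28. The corepressor of ZFP57, Trim28, fell by 0.37 ± 0.08 with CHIR99021 (adjusted p = 0.00523 in limma) and by 0.58 ± 0.08 with AICAR (adjusted p = 0.000331).

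Among 8 readers of methylated CpG 2 rose and 2 fell with CHIR99021, and 2 rose and 5 fell with AICAR. With spike-in scaling the counts were 0 and 1 with CHIR99021, and 2 and 2 with AICAR. With AICAR Mbd1 fell by 1.22 ± 0.06 (adjusted p = 2.04e-06 in limma) and Mbd3, a subunit of the NuRD complex that in mammals binds methylated CpG only weakly, by 0.69 ± 0.09 (adjusted p = 0.000225). The other probe of Mbd1 gave -0.59, and that of Mbd3 -0.79. With CHIR99021 Mbd4, a glycosylase of the same mismatches as TDG, rose by 0.36 ± 0.05 (adjusted p = 0.000511 in limma, and 0.0586 with spike-in scaling). It rose further with AICAR, by 0.54 ± 0.05 (adjusted p = 3.76e-05 in limma). Zbtb4 fell by 0.42 ± 0.10 with CHIR99021 (adjusted p = 0.0101 in limma; with normexp 0.127), while its other probe gave 0.13. With AICAR Zbtb4 rose by 0.55 ± 0.10 (adjusted p = 0.00201 in limma), and its other probe gave 0.25.

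Among 16 genes of base excision repair and demethylation 5 rose and 5 fell with CHIR99021, and 5 rose and 3 fell with AICAR. With spike-in scaling 2 rose and 4 fell with CHIR99021 and 5 and 2 with AICAR. With AICAR 8 rose and 2 fell both with quantile normalization and by the series matrix values. Lig3 is counted among the rises with both agents (0.19 with CHIR99021 and 0.30 with AICAR), but its other probe gave -0.44 and -0.73. The 3 Gadd45 genes, stress-induced genes linked to DNA demethylation, all fell with CHIR99021, and with AICAR 1 rose and 1 fell. Gadd45g had mean levels of 3.36 in DMSO, 0.92 with CHIR99021 and 3.20 with AICAR, and with CHIR99021 it fell by 2.44 ± 0.06 on the log2 scale (adjusted p = 1.5e-07 in limma). Gadd45b fell by 0.45 ± 0.05 with CHIR99021 (adjusted p = 0.000269 in limma) and rose by 1.68 ± 0.05 with AICAR (adjusted p = 2.87e-07). Gadd45a fell with both, by 0.88 ± 0.06 and 0.91 ± 0.06 (adjusted p = 8.84e-06 and 4.91e-06 in limma).

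Among 6 partners of the TET enzymes and genes of 2-oxoglutarate supply 4 rose and 0 fell with CHIR99021, of which 1 rise was left with spike-in scaling. With AICAR 1 rose and 0 fell. Cxxc5, a CXXC protein that binds TET2, rose by 0.41 ± 0.05 with CHIR99021 (adjusted p = 0.000524 in limma). Ogt, the glycosyltransferase bound by TET proteins, rose by 0.38 ± 0.08 (adjusted p = 0.00389 in limma; with spike-in scaling 0.0509). The rise with AICAR was that of Idh2, a mitochondrial source of 2-oxoglutarate (0.29 ± 0.05, adjusted p = 0.00129 in limma).

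Among 9 genes of the methyl donor cycle 3 rose and 1 fell with CHIR99021, and 2 rose and 5 fell with AICAR. With quantile normalization 2 rose and 2 fell with CHIR99021, and with normexp 3 and 2. Mat2a, which makes S-adenosylmethionine, the methyl donor of the DNMT enzymes, fell by 1.29 ± 0.06 with AICAR (adjusted p = 1.54e-06 in limma), and its other probe gave -1.97. With CHIR99021 Mtrr, which reactivates methionine synthase, rose by 0.39 ± 0.07 and Ahcy, which clears the inhibitor S-adenosylhomocysteine, by 0.35 ± 0.06 (adjusted p = 0.00216 and 0.00188 in limma). With AICAR Mtrr fell by 0.55 ± 0.07 (adjusted p = 0.000259 in limma).

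Among 12 germline genes known to be silenced by promoter methylation in somatic cells 2 rose and 5 fell with CHIR99021, and 5 rose and 4 fell with AICAR. The median of the list was -0.24 with CHIR99021 and 0.29 with AICAR. With spike-in scaling 1 rose and 5 fell with CHIR99021, and 7 and 3 with AICAR. With AICAR normexp gave 6 and 4, and quantile normalization 4 and 4. The 5 that rose with AICAR, named after their values were seen, were Ddx4 (0.51), Sycp3 (0.46), Dazl (0.44), Taf7l (0.31) and Tex101 (0.27). Stra8, a meiotic entry gene, fell by 1.22 ± 0.13 with CHIR99021 (adjusted p = 0.000153 in limma) and by 0.62 ± 0.13 with AICAR (adjusted p = 0.00384). Mael, of the piRNA pathway, fell by 0.93 ± 0.05 with CHIR99021 (adjusted p = 3.85e-06 in limma), and Sycp1, of the synaptonemal complex, by 0.53 ± 0.10 with AICAR (adjusted p = 0.00223). Dazl, an RNA-binding protein of germ cells, was the member of this list with the largest rise with CHIR99021, at 0.65 ± 0.07 (adjusted p = 0.000205 in limma), and was named after its value was seen.

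**Figure D4:**
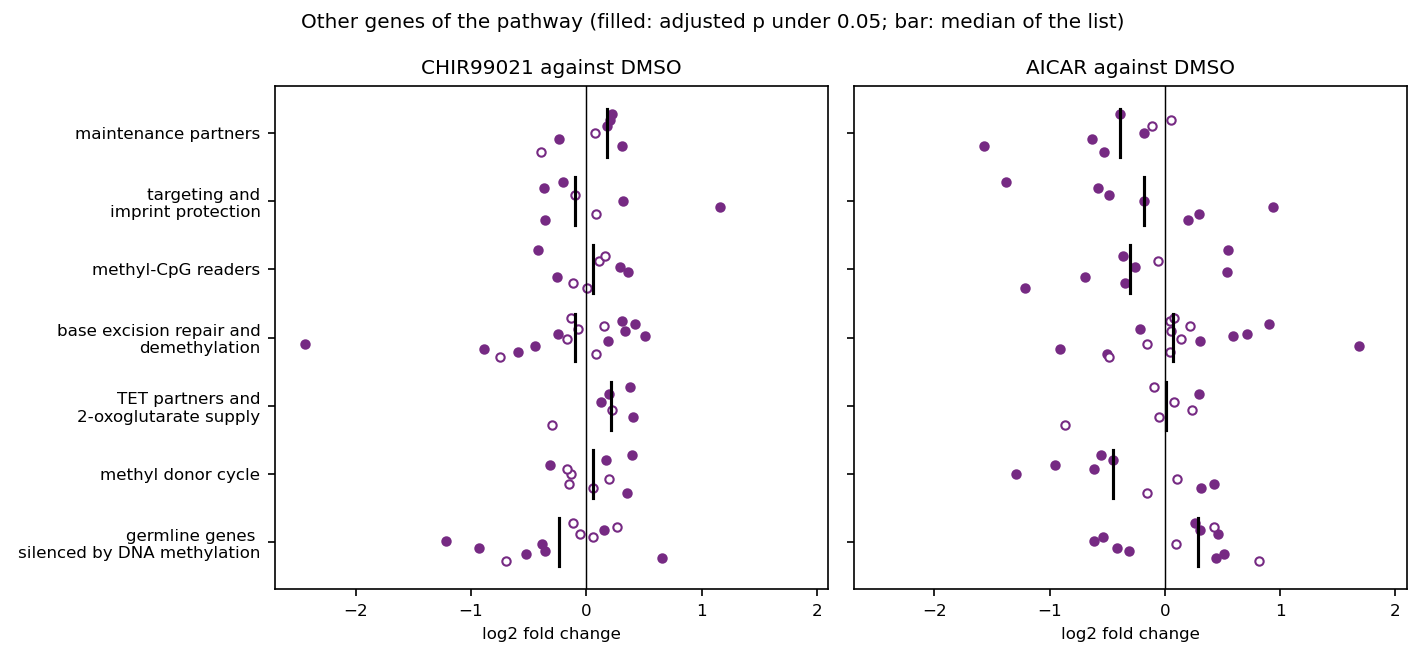
Log2 fold change against DMSO of the 65 other genes of the pathway in 7 lists, with filled points for an adjusted p under 0.05 and a bar for the median of each list. The maintenance partners, with Dppa3 counted among them, have a median of 0.18 with CHIR99021 and -0.39 with AICAR, and the methyl donor cycle 0.06 and -0.45.

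The 9 genes were followed through 19 alternatives in each comparison, among them other scalings, backgrounds, filters, probe choices and fits without 1 array. Against DMSO the calls for Dnmt3b and Dnmt3l held with both agents in all 19, as did those for Dnmt3a, Tet1 and Tet2 with CHIR99021 and Uhrf1 with AICAR. Scaling by the 8 spike-in probes moved every feature by 0.07 downward in CHIR99021 against DMSO and by 0.13 upward in AICAR against DMSO. Under it the falls of Dnmt3b and Dnmt3l with AICAR remained the largest of the 9.

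**Figure D5:**
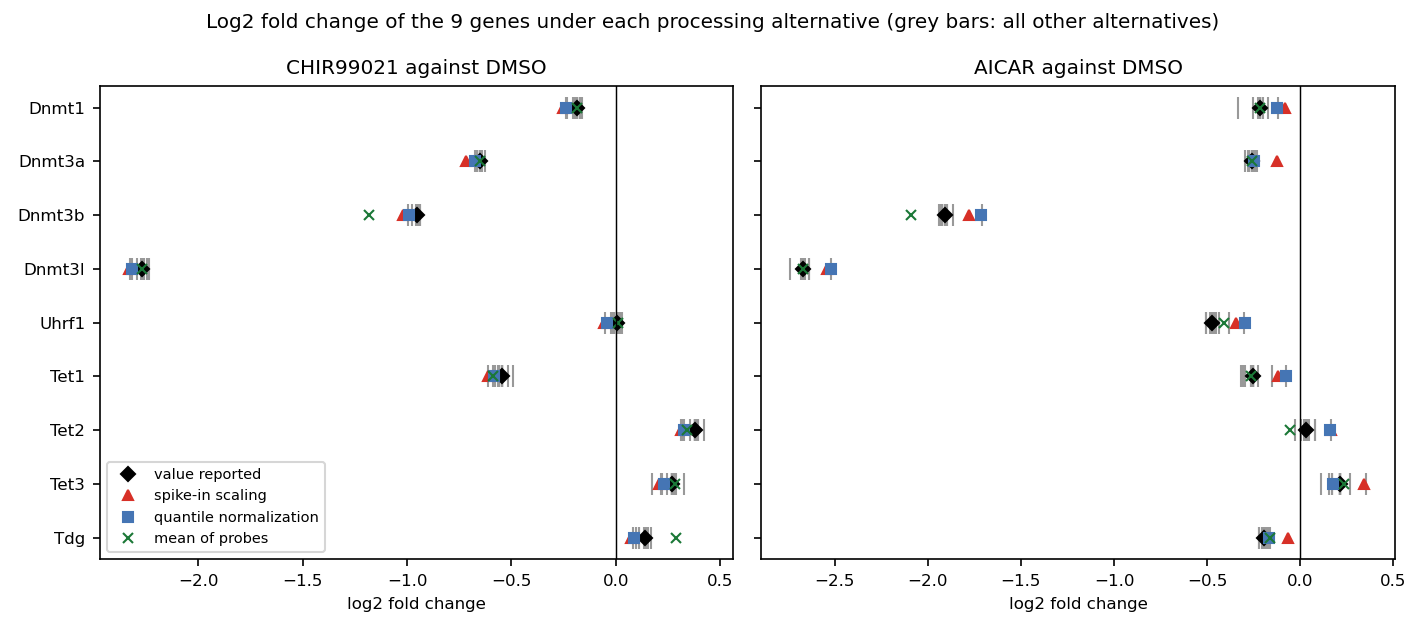
Log2 fold change of the 9 genes against DMSO as reported (diamond) and under each of 19 alternatives, with 3 of them marked by symbols and the others as grey bars. Dnmt3l stays between -2.33 and -2.23 with CHIR99021, and the values of Dnmt1 with AICAR run up to -0.08.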

How the data were processed

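Total RNA of 9 samples was labelled with Cy3 and read on 1-colour Agilent arrays. The deposited scanner files hold linear spot intensity values from Feature Extraction 10.7.3.1 per the file headers; the submitters' processing notes name 10.7. The deposited series matrix holds log2 values. These followed the scanner's log2 signal (correlations 0.99962 to 0.99999 across probes) and had a median of 5.18 and a 75th percentile of 8.90 on every array. Their centring is unknown, and they were used for an alternative alone.

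Levels are log2 processed signals from which the array's 75th percentile (567 to 617) was subtracted, taken over the 59305 spots that are no controls. Spots flagged as outliers, between 136 and 192 on an array, were dropped, and a probe's spots were averaged. A probe had to be well above background on 3 or more arrays, as 37751 of 55681 were. The highest processed signal of a probe of the 9 genes was 45908, and 0 of their spots were saturated. Having 3 arrays per group limits the precision. Accessions were matched to the RefSeq gene list of GRCm38.p6 (27235 probes), which served for names and promoter windows only.

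A single model of all 9 arrays was fitted in R 4.3.3 with limma 3.58.1 (lmFit, eBayes) and version 1.17.8 of the data.table package. The Benjamini-Hochberg adjustment ran over all 26875 features, 16100 of them with a symbol, or over all 37751 probes where each was tested on its own. Errors after ± are standard errors of the fit. The normexp alternative (offset 50) used the median spot signal, since the mean signal planned for it is no column of the files. The steps were tested on simulated data. From each pathway list the 2 called genes with the largest change against DMSO were named, and the 3 most similar features for each of the 9 genes with a log2 change of at least 1. Some genes picked this way are not reported here. The 9 genes and all lists were chosen with earlier results of these data known.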

Additional observations from a re-analysis of the deposited data

How the results depend on the processing

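Over 19 alternatives in 3 comparisons the 9 genes gave 513 values. Of these 477 stayed on their side of the threshold, 32 lost the call, 4 gained one and 0 changed the direction of a call. Differences that were not called could change sign. Those of Uhrf1 with CHIR99021 (-0.06 to 0.03) and of Tet2 with AICAR (-0.05 to 0.17) did so against DMSO, as did those of Dnmt1 and Tet3 between the agents. In CHIR99021 against DMSO the number of the 9 genes that rose was 2, not 1, when the probes of each gene were averaged (Tdg) and in a fit of the 2 groups alone (Tet3), and leaving out single arrays gave 1 to 2 (2 without AICAR replicate 2). In AICAR against DMSO 3 genes fell with spike-in scaling in place of 7, where Dnmt1, Dnmt3a, Tet1 and Tdg lost the call, and 0 to 1 rose when single arrays were left out (1, Tet3, without AICAR replicate 2). In CHIR99021 against AICAR 2 genes in place of 5 were higher with spike-in scaling. There 1 gene in place of 2 was lower in a fit of the 2 groups alone and with the replicate number as a block, and 1 to 2 without single arrays, where Tet1 lost the call without CHIR99021 replicate 2, AICAR replicate 2 or AICAR replicate 3. The counts over all features stayed within 1.5 times of those reported under every alternative.

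Spike-in scaling moved the median log2 fold change of all features from 0.03 to 0.16 in AICAR against DMSO and from 0.10 to -0.09 in CHIR99021 against AICAR. The share of calls that were upward went from 59.7% to 48.5% in CHIR99021 against DMSO, from 51.1% to 66.6% in AICAR against DMSO and from 59.5% to 34.6% between the agents. Same-numbered samples did not deviate together more than others (correlations -0.06 to 0.09 over 9 pairs of arrays). Pairs with different numbers gave -0.13 to 0.11 over 18 pairs. A pairing by number was thus not seen, but it is not excluded, since the groups are small and the labels do not say. With the replicate block 12714, 15468 and 15686 features passed, in place of 13698, 16257 and 16330, and the only calls lost among the 9 genes were those of Tet1 in AICAR against DMSO (adjusted p = 0.0798 in limma) and between the agents (adjusted p = 0.0511). The number of arrays limits the precision, and the Tet3 probe that was on no array well above background was not tested.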
